A study of Danio rerio with 6 samples.

Results

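The keratin genes krt4 (ENSDARG00000017624), krt5 (ENSDARG00000058371), krt8 (ENSDARG00000058358) and cyt1 (ENSDARG00000092947) were followed through 6 RNA-seq libraries of sorted zebrafish thrombocytes. They were chosen by their Ensembl identifiers, are 4 of the 32520 genes counted, and all 4 passed the filter on low counts. Thrombocytes are the nucleated blood cells that do the work of platelets in fish. They were sorted as GFP+/TagRFP+ cells from dissociated larvae at 5 days post fertilization. The 3 control libraries came from larvae with the transgene -6.0itga2b:tagRFP, a red reporter under a thrombocyte promoter. The 3 miR-150 libraries came from larvae in which the transgene -6.0itga2b:miR-150-tagRFP took its place, so that the promoter also drives the microRNA miR-150. Both groups carried the green reporter transgene -6.0itga2b:EGFP as well and were raised in 1-phenyl 2-thiourea, which blocks pigmentation. The number of larvae or sorted cells per library is not given in the sources used here, and the level of miR-150 itself was not analysed here.

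Keratins are the intermediate filament proteins of epithelial cells. A type I keratin pairs with a type II keratin to build a filament, and filaments are anchored to desmosomes, the junctions that hold epithelial sheets together. krt4, krt5 and krt8 are type II keratins and cyt1 is a type I keratin. In zebrafish, krt4 and cyt1 are known from the superficial layer of the larval skin, krt5 from the epidermis, and krt8 from simple epithelia as well. Keratins are not among the usual markers of thrombocytes. The level of a keratin in a bulk library cannot tell apart more epidermal cells, more RNA per cell and carried-over RNA, and none of these was tested.

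Library totals ranged from 12972258 to 22150519 counts. Of 12 thrombocyte markers listed, 9 were matched to a gene. Their summed level lay between 2735.6 and 12201.8 CPM (counts per 1000000 of the library total scaled by TMM). itga2b, the integrin whose promoter drives the reporters, was at 1297.3 to 6198.8 CPM and f5, coagulation factor V, at 271.8 to 1489.8 CPM. Among the 9, the gene named P2RY12 had 0 counts in each library. miR-150 replicate 3 stood apart: its mean correlation with the other libraries over all genes tested was 0.60, against 0.70 to 0.72 for the other 5. Genes with at least 5 counts were fewest in control replicate 1 (14078, from a total of 20559611 counts) and miR-150 replicate 3 (14091). The other libraries had 15329 to 17805 such genes. The part of this difference in the keratin values was not tested.

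krt4 was present in each library at very different levels. Control replicates 1, 2 and 3 held 5800, 76817 and 177136 krt4 counts, which is 305.4, 5160.4 and 8690.4 CPM. miR-150 replicates 1, 2 and 3 held 102199, 116516 and 16915 counts, which is 5157.4, 6238.9 and 1255.5 CPM. The lowest and the highest library were both controls, 28.5-fold apart, and the miR-150 libraries lay between them. krt4 was the gene with the 8th highest count in control replicate 3 and the 482nd highest in control replicate 1. The mean was 4718.7 ± 4209.9 CPM over the controls against 4217.3 ± 2621.3 CPM over the miR-150 libraries (± SD, n = 3 per group).

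krt5 differed as widely among controls. Its level was 217.3, 3883.3 and 5045.2 CPM in control replicates 1, 2 and 3, from 4128, 57806 and 102836 counts. In miR-150 replicates 1, 2 and 3 it was 2161.8, 690.8 and 693.2 CPM, from 42839, 12901 and 9339 counts. Each miR-150 library lay below control replicates 2 and 3 and above control replicate 1, so the groups overlapped. Control libraries averaged 3048.6 ± 2519.8 CPM and miR-150 libraries 1181.9 ± 848.6 CPM (± SD, n = 3 per group).

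In CPM, cyt1 followed krt4 in its order over the libraries. It was at 52.8, 619.3 and 1051.7 CPM in control replicates 1, 2 and 3, from 1002, 9219 and 21437 counts. It was at 234.0, 649.8 and 131.2 CPM in miR-150 replicates 1, 2 and 3, from 4636, 12136 and 1768 counts. Again control replicate 1 was the lowest and control replicate 3 the highest library, 19.9-fold apart. Control libraries averaged 574.6 ± 501.0 CPM and miR-150 libraries 338.3 ± 274.6 CPM (± SD, n = 3 per group).

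krt8 had another order. Its level was 69.9, 122.7 and 178.0 CPM in control replicates 1, 2 and 3, from 1328, 1827 and 3628 counts. It was 141.8, 65.5 and 620.5 CPM in miR-150 replicates 1, 2 and 3, from 2809, 1224 and 8360 counts. The highest library was miR-150 replicate 3, where the other 3 keratins were low, and the lowest was miR-150 replicate 2, where krt4 was high. Being highest in miR-150 replicate 3 alone was common, holding for 28.0% of all genes tested. Control libraries averaged 123.5 ± 54.0 CPM and miR-150 libraries 275.9 ± 300.8 CPM (± SD, n = 3 per group).

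**Figure D1:**
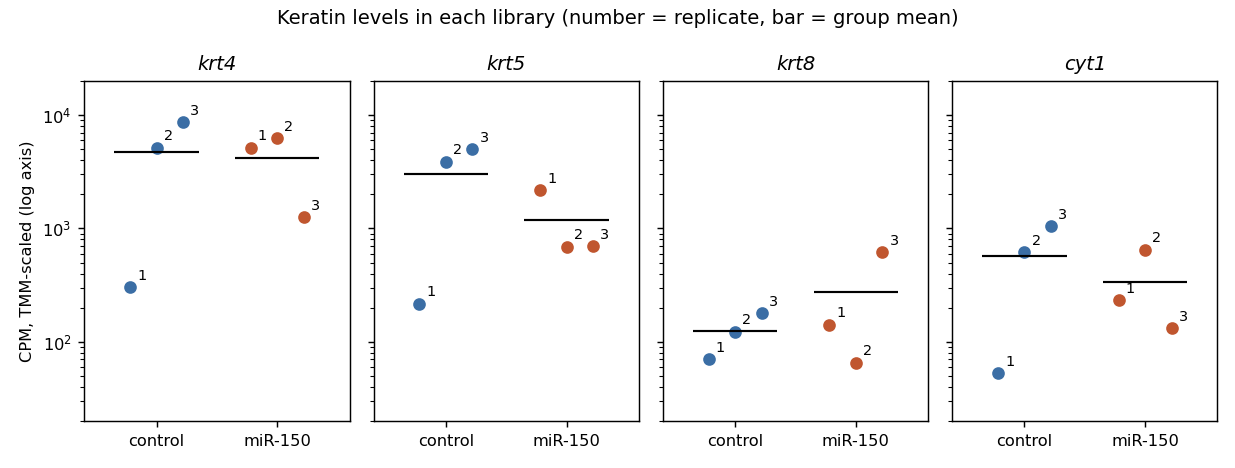
Levels of krt4, krt5, krt8 and cyt1 in CPM on a log axis, with 1 point per library (the number is the replicate) and a bar at the mean of each group of 3. For krt4, krt5 and cyt1 the controls span the whole range, from replicate 1 (lowest) to replicate 3 (highest), while krt8 is highest in miR-150 replicate 3.

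The comparison of genotypes asked whether miR-150 thrombocytes differed from controls in these transcripts. None of the 4 keratins passed the test, and the groups overlapped for each of them. The log2 fold change of miR-150 over control, with its SE, was -0.16 ± 1.14 for krt4, -1.37 ± 1.07 for krt5, 1.16 ± 0.83 for krt8 and -0.76 ± 1.02 for cyt1. The adjusted p-value was 0.995 for krt4 and 0.988 for each of the other 3 (edgeR quasi-likelihood test, Benjamini-Hochberg over 15722 genes). Unadjusted p-values lay between 0.203 and 0.891. For scale, that test called 0 genes, or 0.0% of those tested, with 855 genes (5.44%) at an unadjusted p-value below 0.05. The DESeq2 Wald test called 257 genes (1.63%), and gave the 4 keratins adjusted p-values from 0.841 to 0.991. Groups that do not overlap were found for 13.6% of all genes tested and for 0 of the 4 keratins.

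The direction for krt4 and krt8 depended on single libraries. The krt4 value became 0.61 without control replicate 3 and 0.28 without miR-150 replicate 3. The krt8 value became -0.25 without miR-150 replicate 3. krt5 stayed below 0 with each library left out, from -0.83 without control replicate 3 to -2.19 without miR-150 replicate 1, and was -1.09 without miR-150 replicate 3. cyt1 also stayed below 0 but came to -0.0073 without control replicate 3 and -0.37 without miR-150 replicate 3. With standard errors near 1 on the log2 scale, these data do not show that the keratins were alike in the genotypes.

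Within a group, the SD of log2 CPM, pooled over both groups, was 2.04 for krt4, 1.90 for krt5, 1.83 for cyt1 and 1.26 for krt8. The median over all genes tested was 1.05. These spreads lay at the 73.2nd, 70.3rd, 68.8th and 56.3rd percentile of the genes tested, so many other genes varied as much between replicates. Genes of all levels entered this ranking, so it does not show how the keratins compare with genes of like level.

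Together the 4 keratins took 0.0596% of all counts in control replicate 1, with an exact (Clopper-Pearson) 95% interval from 0.0586% to 0.0607%. They took 1.12% in control replicate 2 and 1.76% in replicate 3, where the interval ran from 1.75% to 1.77%. In miR-150 replicates 1, 2 and 3 the share was 0.879%, 0.645% and 0.219%. The intervals cover counting error only and are far narrower than the differences between libraries. Averaged by genotype, the share was 0.981% ± 0.859 for control and 0.581% ± 0.335 for miR-150 (± SD, n = 3 per group). The gap of -0.400 percentage points did not exceed the SD of the controls, with p = 0.5 in a two-sided exact permutation test, where 3 against 3 allows no p below 0.1. It was -0.0105 without control replicate 3, -0.219 without miR-150 replicate 3 and -0.861 without control replicate 1. Its direction depended on the scale, as the difference in mean log2 share was 0.025 in favour of miR-150.

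The make-up of the keratin counts shifted between libraries as well. krt4 made up 47.3%, 52.7% and 58.1% of the summed counts in control replicates 1, 2 and 3. It made up 67.0%, 81.6% and 46.5% in miR-150 replicates 1, 2 and 3. krt5 fell to 9.04% of the sum in miR-150 replicate 2 and held 25.7% to 39.7% in the other libraries. krt8 held 0.857% to 1.84% of the sum in 4 libraries, but 10.8% in control replicate 1 and 23.0% in miR-150 replicate 3. The krt8 level in control replicate 1 was 69.9 CPM, close to the lowest, so its larger part there went with low counts of the other keratins.

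**Figure D2:**
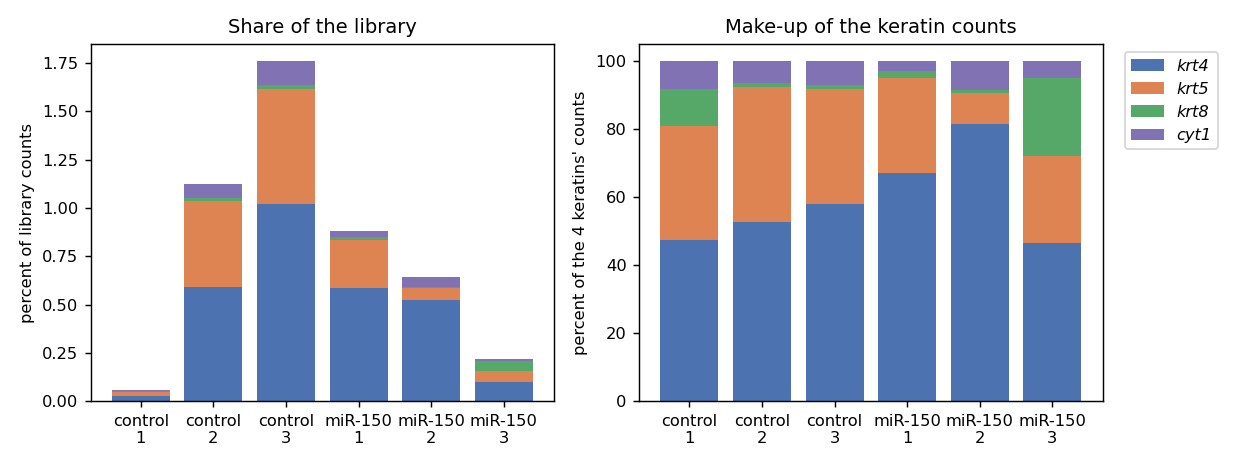
Left, percent of all counts in each library taken by krt4, krt5, krt8 and cyt1, stacked; right, the same counts as percent of their sum, with 1 bar per library. The share runs from 0.0596% (control replicate 1) to 1.76% (control replicate 3), and the make-up differs most in miR-150 replicates 2 (krt4 at 81.6%) and 3 (krt8 at 23.0%). Counts are not divided by transcript length.

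Over the 6 libraries, log2 CPM of krt4 and cyt1 had a Pearson r of 0.94 (exact permutation p = 0.00139, adjusted 0.00833 over the 6 pairs of keratins). An r of this size was not particular to keratins. In all, 303 genes had an r of at least 0.9 with krt4, and cyt1 ranked 91st among them. Spearman's rho of krt4 and cyt1 was 1, with the smallest two-sided p that a rank correlation over 6 libraries can give (exact permutation p = 0.00278, adjusted 0.0167). That rank order rested on a near tie of krt4, at 5160.4 CPM in control replicate 2 and 5157.4 CPM in miR-150 replicate 1. cyt1 was at 619.3 and 234.0 CPM in these libraries. The shared order also depended on the TMM scaling. As a share of all counts, krt4 was lower in miR-150 replicate 2 (0.526%) than in miR-150 replicate 1 (0.589%). For cyt1 the share was higher in miR-150 replicate 2, at 0.0548% against 0.0267%. Without control replicate 1 and miR-150 replicate 3, the libraries farthest from the median of krt4, r was 0.77. krt4 and krt5 had an r of 0.84 (exact permutation p = 0.0319, adjusted 0.0958) and a rho of 0.66 (p = 0.175). That relation rested on the same 2 libraries, as r was 0.27 without them. krt5 and cyt1 had an r of 0.80 (exact permutation p = 0.0583, adjusted 0.117), or 0.33 without control replicates 1 and 3. krt8 had an r of -0.013 with krt4, 0.20 with krt5 and -0.088 with cyt1 (exact permutation p = 0.954, 0.718 and 0.854, adjusted 0.954 for each). The last of these was 0.90 without miR-150 replicates 2 and 3, the libraries farthest from the median of krt8. With krt4, the r of krt8 was 0.30 without control replicate 1 and miR-150 replicate 3. With krt5 it was -0.26 without control replicates 1 and 3. The libraries left out were those farthest from the median of 1 gene of each pair, so they differ between pairs. All levels within a library share its scaling factor, and each group holds too few libraries for values within it.

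The ratio of krt4 to krt5 counts showed where the members parted. It was 1.41, 1.33 and 1.72 in control replicates 1, 2 and 3 and 2.39, 9.03 and 1.81 in miR-150 replicates 1, 2 and 3. Hence control replicate 1, with the fewest keratin counts, had nearly the same ratio as control replicate 2. The ratio of krt4 to cyt1 lay between 5.79 and 9.60 in 5 libraries and was 22.04 in miR-150 replicate 1. These ratios were chosen after the values were seen, and no test was made.

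The wider keratin family was read from a list of 20 genes, all matched. The list also held icn and icn2, which encode ictacalcins, S100 calcium-binding proteins and not keratins. Of the 18 keratins, 12 passed the filter on low counts, and the edgeR test called 0 of them. Their log2 fold change was above 0 for 8 and below 0 for 4, with a median of 0.43 against 0.044 for all genes tested. Of the 6 that did not pass, 2 had 0 counts in each library. In 7 of the 12, control replicate 1 alone was the lowest library, which held for 18.5% of all genes tested.

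krt1-19e, a type I keratin whose promoter is used to mark basal keratinocytes, had the most counts of the list (not per length). Its level was 122.6, 2059.0 and 3313.9 CPM in control replicates 1, 2 and 3, and 1428.4, 611.7 and 381.7 CPM in miR-150 replicates 1, 2 and 3. The ratio of krt5 to krt1-19e counts lay between 1.13 and 1.89 in all 6 libraries, a 1.67-fold range. The ratio of krt4 to krt1-19e ranged 4.09-fold, from 2.49 in control replicate 1 to the highest value in miR-150 replicate 2. Both ratios were picked after the values were seen, with no test. That of krt5 to krt1-19e had the narrowest range of all ratios formed, while that of krt5 to krt91 ranged 20.93-fold.

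krt91 was at 88.5, 1479.6 and 1648.9 CPM in control replicates 1, 2 and 3. It was at 1389.1, 47.6 and 998.9 CPM in miR-150 replicates 1, 2 and 3, so that miR-150 replicate 2 held even less than control replicate 1. krt17, which lies next to cyt1 in the RefSeq gene order of assembly GRCz12tu, went the other way in that library. Its level was 561.0 CPM in control replicate 3 and 524.3 CPM in miR-150 replicate 2, and 16.6 to 69.0 CPM in the other 4 libraries. cyt1l, the neighbour on the other side of cyt1, was at 424.3 and 200.7 CPM in those libraries and at 10.16 to 170.4 CPM in the others. How reads matching both cyt1 and cyt1l were counted is not given in the sources used here, so both values are uncertain.

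krt8 and krt5 are direct neighbours in that gene order, and krt18a.1 follows krt8. Next comes krt18a.2, which was not on the list and was not looked at. krt18a.1 encodes a type I keratin of the K18 kind, the usual partner of K8 in simple epithelia of mammals. It was at 39.3, 197.0 and 142.1 CPM in control replicates 1, 2 and 3 and at 129.5, 73.3 and 306.0 CPM in miR-150 replicates 1, 2 and 3. Like krt8 it was highest in miR-150 replicate 3, as were krt18b, krt92, krt94 and KRT222, and 28.0% of all genes tested. Its lowest library was control replicate 1, where that of krt8 was miR-150 replicate 2. The ratio of krt8 to krt18a.1 counts, chosen after the values were seen, ranged from 0.623 to 2.03. krt8 and krt5, although adjacent, had a ratio that ranged 28.3-fold.

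krt92 and KRT222 were the 2 keratins of the list whose groups did not overlap. krt92 was at 18.9, 12.97 and 25.4 CPM in control replicates 1, 2 and 3 and at 690.9, 35.9 and 739.5 CPM in miR-150 replicates 1, 2 and 3. All 3 miR-150 libraries lay above all controls, which held for 7.64% of the genes tested. The log2 fold change was 4.68 ± 1.08 (SE), with an unadjusted p-value of 0.00309 and an adjusted p-value of 0.758 in the edgeR quasi-likelihood test. The DESeq2 Wald test called it, with an adjusted p-value of 0.000205. With a library left out in turn, the DESeq2 adjusted p-value was at most 0.00696. The intestinal marker list was highest in miR-150 replicates 1 and 3 as well, at 2090.6 and 150.4 CPM against 22.4 to 87.8 CPM elsewhere, and its part in the krt92 values was not tested.

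The ictacalcin gene icn, named by the same rule of mean CPM, was at 86.5, 118.4 and 245.4 CPM in control replicates 1, 2 and 3 and at 1674.5, 120.3 and 157.6 CPM in miR-150 replicates 1, 2 and 3. miR-150 replicate 1 stood alone, and the adjusted p-value was 0.988 in edgeR.

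KRT222, a keratin-like gene that carries its human-style symbol in the name table, was the other one. It was at 0, 1.01 and 5.54 CPM in control replicates 1, 2 and 3 and at 8.18, 206.6 and 389.8 CPM in miR-150 replicates 1, 2 and 3. Its adjusted p-value was 0.761 in edgeR and 0.00371 in DESeq2, and DESeq2 did not call it without miR-150 replicate 3. krt15 was at 185.9 to 416.8 CPM in miR-150 libraries and at 25.4 to 316.0 CPM in controls, with an adjusted p-value of 0.988 in edgeR.

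**Figure D3:**
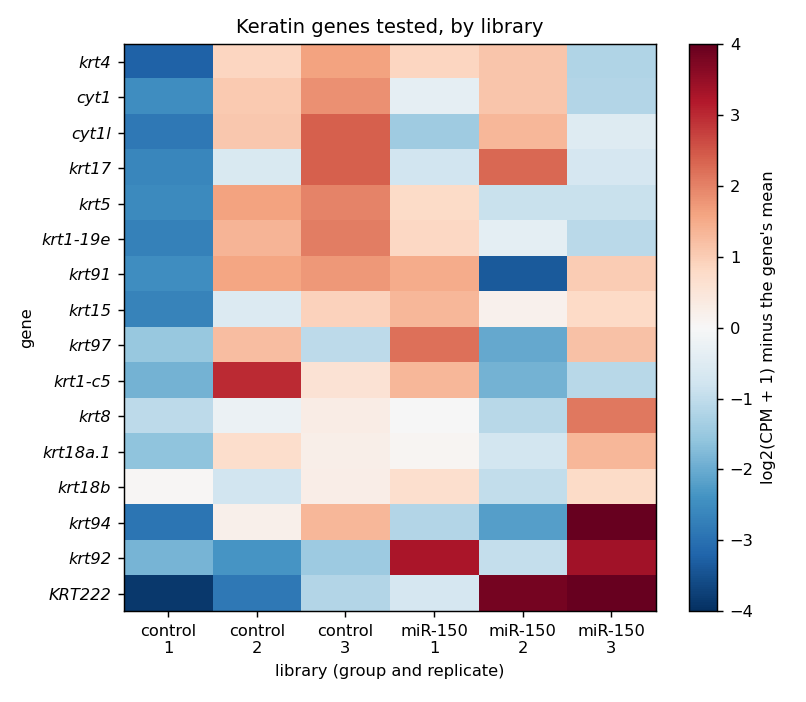
Levels of 16 keratin genes in the 6 libraries: the 4 described here and the 12 of the keratin list that passed the filter. Colours show log2(CPM + 1) minus the mean of the gene over all libraries, capped at 4 either way. Control replicate 1 is low in most rows, and miR-150 replicate 2 is high for krt4, cyt1, cyt1l and krt17 but low for krt91. miR-150 replicate 3 is the highest library for krt8, krt18a.1, krt18b, krt94, krt92 and KRT222.

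Genes that anchor keratins at desmosomes were, in sum, highest in control replicate 3, at 636.5 CPM, and lowest in miR-150 replicate 3 and control replicate 1, at 127.0 and 134.5 CPM. The list of desmosome parts and keratin linkers had 6 of 13 genes matched and tested, of which edgeR called 0. Their median log2 fold change was -0.38, with 2 genes above 0. PERP, a desmosome-associated membrane protein, was at 74.4, 207.4 and 279.4 CPM in control replicates 1, 2 and 3 and at 158.0, 112.8 and 64.7 CPM in miR-150 replicates 1, 2 and 3. dsc2l, a desmosomal cadherin, ranged from 31.3 CPM in miR-150 replicate 3 to 162.3 CPM in control replicate 3. pkp3a, a plakophilin, ranged from 0.158 CPM in control replicate 1 to 116.6 CPM in control replicate 3. PPL, the linker periplakin, was listed at 0 in control replicate 1 and was highest in miR-150 replicate 1, at 126.1 CPM.

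Of the 15 other epidermal genes listed, 13 were matched and tested, and edgeR called 0 of them. The median log2 fold change was -0.79, with 4 genes above 0, against 0.044 for all genes tested. Control replicate 1 alone was the lowest library for 9 of the 13 and control replicate 3 the highest for 8, which held for 18.5% and 15.4% of all genes tested. epcam, an epithelial adhesion molecule, was at 5.74, 346.8 and 422.5 CPM in control replicates 1, 2 and 3. It was at 89.1 and 54.2 CPM in miR-150 replicates 2 and 3, with miR-150 replicate 1 between these and control replicate 2. cldni, an epidermal claudin of tight junctions, was at 0.790 CPM in control replicate 1, 329.9 and 404.5 CPM in control replicates 2 and 3, and 121.8, 2.46 and 5.72 CPM in miR-150 replicates 1, 2 and 3. TP63, the transcription factor of basal epidermal cells, was at 72.5, 79.3 and 45.5 CPM in control replicates 2 and 3 and miR-150 replicate 1, and at 0 to 0.589 CPM in the other 3. TP63 was chosen after its values were seen, while cfl1l and s100a10b, next in mean level, ranged from 10.95 to 197.5 CPM and from 12.8 to 178.0 CPM. ELF3 of the same list went the other way, at 0, 0 and 11.97 CPM in control replicates 1, 2 and 3. It was at 70.75, 14.73 and 32.07 CPM in miR-150 replicates 1, 2 and 3, with an adjusted p-value of 0.988 in edgeR. ELF3 was the only 1 of the 13 whose groups did not overlap, and higher groups of this kind held for 7.64% of all genes tested.

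The genes nearest to the mean log2 CPM of the 4 keratins over the 6 libraries included epcam, with the second highest Pearson r of 15718 genes compared (0.991). The other 9 of the nearest 10 were prrg2 (0.995), thtpa, nt5dc2, srr, dnase1l4.1, zmym4.1, RXRA, ABCA3 and si:cabz01070527.3, with r of at least 0.978. Among all genes compared, 259 had an r of at least 0.9. When a library was left out, 0 to 4 of these 10 were still among the nearest 10, so the names depend on all 6 libraries. All 10 were lowest in control replicate 1, against 18.5% of all genes tested. The keratin mean was lowest there too, and the 10 were picked for likeness to it, so this follows from the choice.

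**Figure D4:**
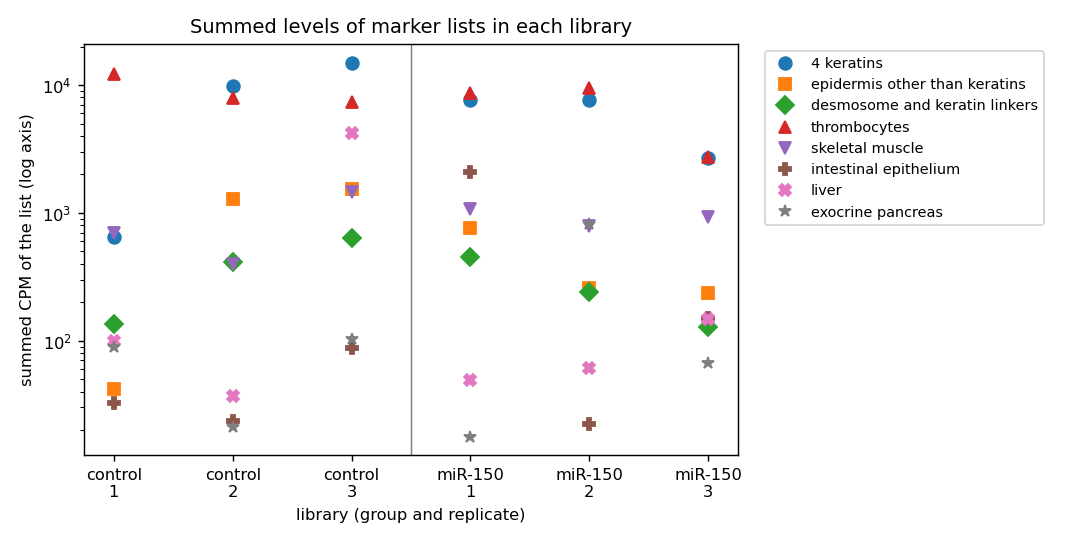
Summed CPM of the 4 keratins and of 7 marker lists in each library, on a log axis, with 1 symbol per list. Keratins, epidermal and linker genes are highest in control replicate 3, but between miR-150 replicates 2 and 3 the keratin sum differs (7645.1 and 2700.5 CPM) where the epidermal sum is close (260.3 and 235.9 CPM). Thrombocyte markers are highest in control replicate 1.

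Summed over the 4 keratins, the level was 645.4, 9785.7 and 14965.2 CPM in control replicates 1, 2 and 3 and 7694.9, 7645.1 and 2700.5 CPM in miR-150 replicates 1, 2 and 3. The epidermal list without keratins stood at 42.0, 1280.6 and 1533.9 CPM in the same controls and at 764.8, 260.3 and 235.9 CPM in the miR-150 libraries. Of the 8 thrombocyte markers tested, 7 were lowest in miR-150 replicate 3, against 28.3% of all genes. The 9 matched markers summed to 12201.8, 7889.5 and 7319.1 CPM in controls and 8606.2, 9514.4 and 2735.6 CPM in miR-150 libraries. Among controls, the library with the least keratin had the most thrombocyte marker RNA, whereas miR-150 replicate 3 was low in both. Ionocyte genes, which mark another skin cell type, summed to 0.211 to 33.0 CPM over 6 of 8 listed genes. The highest were ca2, a carbonic anhydrase, at up to 11.7 CPM and the transcription factor gene foxi3a at up to 21.1 CPM, while TRPV6 and foxi3b had 0 counts in each control. Skeletal muscle genes, 9 of 15 listed, summed to 398.6 to 1451.3 CPM, with pvalb1 and pvalb2 holding the most counts. Their sum was highest in control replicate 3, as that of the keratins was, and lowest in control replicate 2. Of the 9 genes, 6 were highest in control replicate 3, against 15.4% of all genes tested. The part of carried-over epidermal or other RNA in the keratin values was not tested.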

How the data were processed

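The authors deposited raw read counts per Ensembl gene for 6 libraries. Per the labels' protocols, RNA was taken from sorted cells, cDNA was amplified with a SMARTer ultra-low input kit and libraries were made with Nextera XT. Per the submitters' processing notes, STAR 2.7.10b, HTSeq 0.11.3, edgeR 1.34.1 and build GRCz11 were used. Annotation release, strand setting and duplicate handling are not given in the sources used here, so overlapping genes and near-identical copies are uncertain. Columns were matched to libraries by the labels' library names. Of 32520 identifiers, 29201 were paired with a symbol, and 92 of 122 listed marker symbols were matched.

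In R 4.3.3, edgeR 4.0.16 kept 15722 genes by filterByExpr, scaled by TMM, and fitted genotype alone with the quasi-likelihood test. P-values were adjusted by Benjamini-Hochberg over all genes tested and called below 0.05. SE was taken as the fold change divided by the root of its F statistic. Log2 CPM used a prior count of 2. Alternatives used DESeq2 1.42.0 and limma 3.58.1. Permutation tests and correlations used Python 3.11.15 with scipy 1.17.1. The scripts were tested on simulated data. For edgeR, recovery of changed genes was required only at a spread below that of these data. Their common biological coefficient of variation was 1.03, so that check does not show how well changes are found here.

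Libraries are labelled as biological replicates, and the p-values measure the spread between them. Genes were named by rule: the 4 keratins, the 10 nearest genes, the 4 highest genes of each keratin, linker and epidermal list, the 2 highest of other lists, and any list gene called by edgeR. That last part added no name, as edgeR called 0 genes. Other names were chosen after their values were seen. The members and lists were chosen with earlier results of these data known. No transcript lengths were used: tests compare levels within a gene, and shares, ranks and sums over genes are of counts, not per length.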

Additional observations from a re-analysis of the deposited data

How the results depend on the processing

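The edgeR test called 0 genes under each of DESeq2 size factors, upper-quartile scaling, an adjusted p-value below 0.10, a mean CPM minimum of 5, no filter and the replicate block, and limma voom with quality weights also called 0. The DESeq2 Wald test called 257 genes, 232 higher and 25 lower in miR-150 libraries, and 2 genes of the keratin and epidermal lists, krt92 and KRT222. With control replicate 1, 2 or 3 left out, a check chosen after seeing the data, DESeq2 called 281, 304 or 522 genes. With miR-150 replicate 1, 2 or 3 left out it called 598, 210 or 346, and in these 6 fits it called 1 to 4 list genes. The 4 came from the fit with 598 calls, 434 higher and 164 lower in miR-150 libraries. The full fit called 1.63% of all genes tested, and the share is not given for these 6 fits. Besides krt92 and KRT222, these were ELF3, higher in miR-150 libraries, without control replicate 3 (DESeq2 adjusted p-value 1.707e-07). Without miR-150 replicate 1, TP63 and cldni were called lower (DESeq2 adjusted p-values 0.00153 and 0.00447). Control replicate 1 was nonetheless low for both, at 0.579 and 0.790 CPM. In miR-150 replicates 2 and 3, TP63 was at 0.589 and 0 CPM and cldni at 2.46 and 5.72 CPM. With all 6 libraries, DESeq2 gave TP63 no adjusted p-value and cldni a DESeq2 adjusted p-value of 0.793. The lists held 14, 6 and 13 genes tested. With a replicate left out in edgeR the counts stayed at 0. The krt4 log2 fold change reversed to 0.22 under voom and 0.41 under the replicate block. It ranged from -0.71 to 0.61 with a replicate left out in edgeR and reversed to 0.57 without control replicate 3 and 0.25 without miR-150 replicate 3 in DESeq2. krt8 reversed to -0.20 under voom, ranged from -0.25 to 1.62 in edgeR and was -0.28 in DESeq2 without miR-150 replicate 3. krt5 and cyt1 kept their sign in all 19 alternatives each, and in none of the 19 did any of the 4 keratins pass the threshold. The lowest adjusted p-value was 0.200, for krt5 in DESeq2 without control replicate 1, and krt5 ranged up to 1. The cause of the reversals was not tested.

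The difference in summed share reversed to 0.025 as a difference of log2 shares and ranged from -0.861 to -0.0105 with a replicate left out. Paired by replicate number, its exact sign-flip test gave p = 0.75, and so few pairs cannot give a small p. The krt4 part of the keratin counts averaged 58.9%, and 54.3% to 61.4% with a replicate left out. Of the 10 nearest genes, 3 were in or tied with the top 10 by Spearman's rho, where 27 genes had a rho of 1, and 0 to 4 with a replicate left out. The replicate numbers are not shown to pair libraries: correlations between the deviations of libraries with 1 number were -0.192, -0.100 and -0.0379. The block changed no call, but the fit without it called 0 genes too, so that says little about pairing. Each library held at least 1002 counts of each of the 4 keratins. The cDNA was amplified and duplicate handling is not given, so whether depth limited these values was not tested.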

Other observations

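Marker genes of several other tissues, summed by list, were high in single libraries, and their source was not tested. Liver genes summed to 4240.5 CPM in control replicate 3 and to 37.2 to 147.8 CPM elsewhere, led by the apolipoproteins apoa1b and apoa2 at 1797.3 and 1149.5 CPM. Genes of the exocrine pancreas summed to 811.4 CPM in miR-150 replicate 2 and to 17.8 to 103.6 CPM elsewhere, led by the digestive enzyme genes prss59.2 and prss1 at 181.3 and 185.9 CPM. Intestinal genes summed to 2090.6 CPM in miR-150 replicate 1, led by VIL1, the microvillus protein villin, at 1165.5 CPM and by FABP2, a fatty acid-binding protein, at 384.9 CPM. Erythroid genes, 5 of 9 listed, had their highest sum in miR-150 replicate 3, at 334.3 CPM against 24.8 to 73.8 CPM. The globin genes hbae3 and hbae1.1 led it, at 220.5 and 55.7 CPM. Of the 5, 4 were highest there, against 28.0% of all genes tested. epb41b was highest in control replicate 1, at 11.48 CPM, and stood at 6.01 CPM in miR-150 replicate 3. The DESeq2 Wald test called 2 of 5 intestinal genes, VIL1 and cldn15la, and 1 of 5 erythroid genes, hbae3. It called 1.63% of all genes tested. Their DESeq2 adjusted p-values were 0.000622, 0.00207 and 0.001955, while edgeR called 0 genes of either list. The groups did not overlap for cldn15la and hbae3, both higher in miR-150 libraries, as for 7.64% of all genes tested. Myeloid genes ranged from 16.8 to 93.1 CPM, with CORO1A and LCP1 the highest. Control replicate 3 was the highest library for the liver sum and for krt4, krt5 and cyt1, as it was for 15.4% of all genes tested. miR-150 replicate 3 was the highest for the erythroid sum and for krt8, as it was for 28.0% of all genes tested. Whether these patterns are related was not tested.

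Nearest genes were also taken for each keratin alone, a choice made after the values were seen. Among the 100 genes nearest to krt5 by Pearson r over the 6 libraries were krt1-19e (0.988) and 5 of the 19 tested genes of the linker and epidermal lists: lye, cldni, s100a10b, cfl1l and epcam. Among the 100 nearest to cyt1 were cyt1l (0.951), krt4, GRHL1 and cldne. The 100 nearest to krt4 held cyt1, PPL and cldne, and the 100 nearest to krt8 held krt94 (0.958) and no gene of the linker or epidermal lists. As 100 is a small part of the 15722 genes tested, that absence does not set krt8 apart. Genes with an r of at least 0.9 numbered 303 for krt4, 330 for krt5, 179 for krt8 and 135 for cyt1. krt94 was at 357.8 CPM in miR-150 replicate 3 and at 0.790 to 32.6 CPM elsewhere. These are descriptions over 6 libraries that share groups and scaling, with no test.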
